A study of Mus musculus with 2 samples.

Results

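The 9 genes described here, Irx1, Irx2, Irx3, Irx4, Irx5, Irx6, Meis1, Meis2 and Pbx3, were taken by symbol from the 32285 genes counted in each of 2 single-cell RNA sequencing libraries. Each symbol was listed once in both libraries. Both were made from whole mouse embryos dissociated at day 9.5 of development, 1 of genotype Usb1+/+ (wild-type) and 1 of genotype Usb1-/- (Usb1-null). The product of Usb1 is a nuclease acting on the uridine tail of U6 small nuclear RNA, and the study asked which embryonic cell types need it. The knockout was a germline deletion made by CRISPR/Cas9 with a pair of guides around exon 2, so every cell of a Usb1-null embryo lacked the gene, and the embryos came from an intercross of heterozygous mice. No group was treated. The sources used here give neither the strain nor the number of embryos in each library. With 1 library per genotype there was no replicate, so no test was made and every comparison is between these 2 libraries.

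The members belong to the TALE class of homeobox genes, whose homeodomain carries a loop of extra residues between its first helices. The Irx (Iroquois) genes encode transcription factors that pattern the neural tube, the heart and the limb, and lie in a pair of clusters on separate chromosomes. Meis and Pbx proteins bind DNA together and with Hox proteins, and are best known as Hox partners in the hindbrain, the limb bud and blood progenitors.

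In the GENCODE M21 annotation of GRCm38, Irx1 (chr13:71957921-71963723, minus strand), Irx2 (chr13:72628820-72634198, plus strand) and Irx4 (chr13:73260479-73269608, plus strand) form one cluster. Irx3 (chr8:91798525-91802067, minus strand), Irx5 (chr8:92357625-92376286, plus strand) and Irx6 (chr8:92674288-92680956, plus strand) form the other. Within the clusters, 556 kb separate Irx3 from Irx5, 298 kb Irx5 from Irx6, 665 kb Irx1 from Irx2 and 626 kb Irx2 from Irx4. Meis1 (chr11:18879817-19018985), Pbx3 (chr2:34171457-34373142) and Meis2 (chr2:115863064-116065839) all lie on the minus strand. The gene spans run from 3.54 kb for Irx3 to 203 kb for Meis2. For this reason levels were compared between cells and between libraries for each gene, and UMI numbers of different genes say how precisely each was measured and not which was expressed more.

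The homeobox shows how close the members are and where their counts could be confused. The sequences below, from GENCODE M21 transcripts on GRCm38, are the 51 coding bases of the DNA-reading helix of each homeodomain, with the codon for homeodomain position 50, a contact to DNA, in capitals.
Irx1: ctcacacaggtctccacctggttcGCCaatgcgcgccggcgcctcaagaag
Irx2: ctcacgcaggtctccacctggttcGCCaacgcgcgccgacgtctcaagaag
Irx3: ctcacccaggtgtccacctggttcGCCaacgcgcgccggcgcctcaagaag
Irx4: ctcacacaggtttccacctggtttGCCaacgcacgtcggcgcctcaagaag
Irx5: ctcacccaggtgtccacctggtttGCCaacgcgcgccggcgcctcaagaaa
Irx6: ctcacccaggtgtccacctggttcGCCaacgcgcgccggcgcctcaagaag
Meis1: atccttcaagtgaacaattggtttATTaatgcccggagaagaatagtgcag
Meis2: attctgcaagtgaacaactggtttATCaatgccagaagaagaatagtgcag
Pbx3: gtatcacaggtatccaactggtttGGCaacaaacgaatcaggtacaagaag

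All 6 Irx genes carry the same capital codon, whereas Meis1, Meis2 and Pbx3 each differ from it. The stretch lies in exon 2 of Irx1 (chr13:71960001-71960051), Irx2 (chr13:72630793-72630843), Irx3 (chr8:91800505-91800555) and Irx5 (chr8:92359756-92359806), in exon 5 of Irx4 (chr13:73267652-73267702) and in exon 4 of Irx6 (chr8:92677365-92677415). In Meis1 and Meis2 it is split between exons 9 and 10, and in Pbx3 between exons 5 and 6. Irx3 and Irx6 were identical over the 51 bases. Over the 189 bases of the whole homeobox, the 15 Irx pairs were 83.1% to 91.0% identical, Irx2 and Irx5 being the closest. Meis1 and Meis2 were 84.1% identical, and Irx genes were 45.0% to 48.7% identical to the Meis genes. The longest unbroken run shared by the transcripts of any 2 members was 88 bases, between Irx3 and Irx6. Reads of this kit come mostly from the 3′ end of transcripts, but a read that fell inside such a run could not be placed on 1 gene. Irx3 also overlaps its antisense transcript Irx3os (chr8:91800415-91807539). The sources used here do not say whether the counting used the strand, so reads of Irx3 and Irx3os may not be told apart.

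After filtering, 15161 wild-type cells with 21732106 unique molecular identifiers (UMIs, each marking 1 captured transcript) and 13018 Usb1-null cells with 33383886 UMIs remained. The median was 1243 UMIs per wild-type cell and 2299.5 per Usb1-null cell. The libraries shared 61 cell barcodes. The wild-type library held 53276 UMIs of Xist and 14 of 4 Y-linked genes, whereas the Usb1-null library held 26 and 23463, so sex and genotype cannot be told apart. Usb1 itself was not used to check the labels. A 3′ read would lie outside the deleted exons, and whether the level of such reads changed is not given here. Cells were sorted into 20 clusters without using the members, of which 18 held at least 100 cells of each library. Orders and ranges over the clusters cover these 18. Clusters were called "X-like" from marker lists, and 5 stayed unnamed. Levels below are CPM, the UMIs of a gene per 1000000 UMIs of the same cells, given as wild-type and then Usb1-null, and every interval is a 95% interval for counting error only, which says nothing of the spread between embryos.

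The number of UMIs set the precision for each member. Meis2 had 38809 wild-type and 62914 Usb1-null UMIs, Pbx3 had 22805 and 34415, and Meis1 had 19085 and 28783. These 3 genes were captured in most types of cell. The Irx genes rested on fewer UMIs: Irx5 had 754 and 1120 UMIs, Irx3 545 and 1033, Irx2 299 and 560, Irx1 225 and 397, and Irx4 59 and 139. Irx6 had 0 UMIs in wild-type cells, which allows a level of up to 0.170 CPM, and 5 in Usb1-null cells. The 5 Irx6 UMIs were spread over 4 clusters, so Irx6 is described no further.

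**Figure D1:**
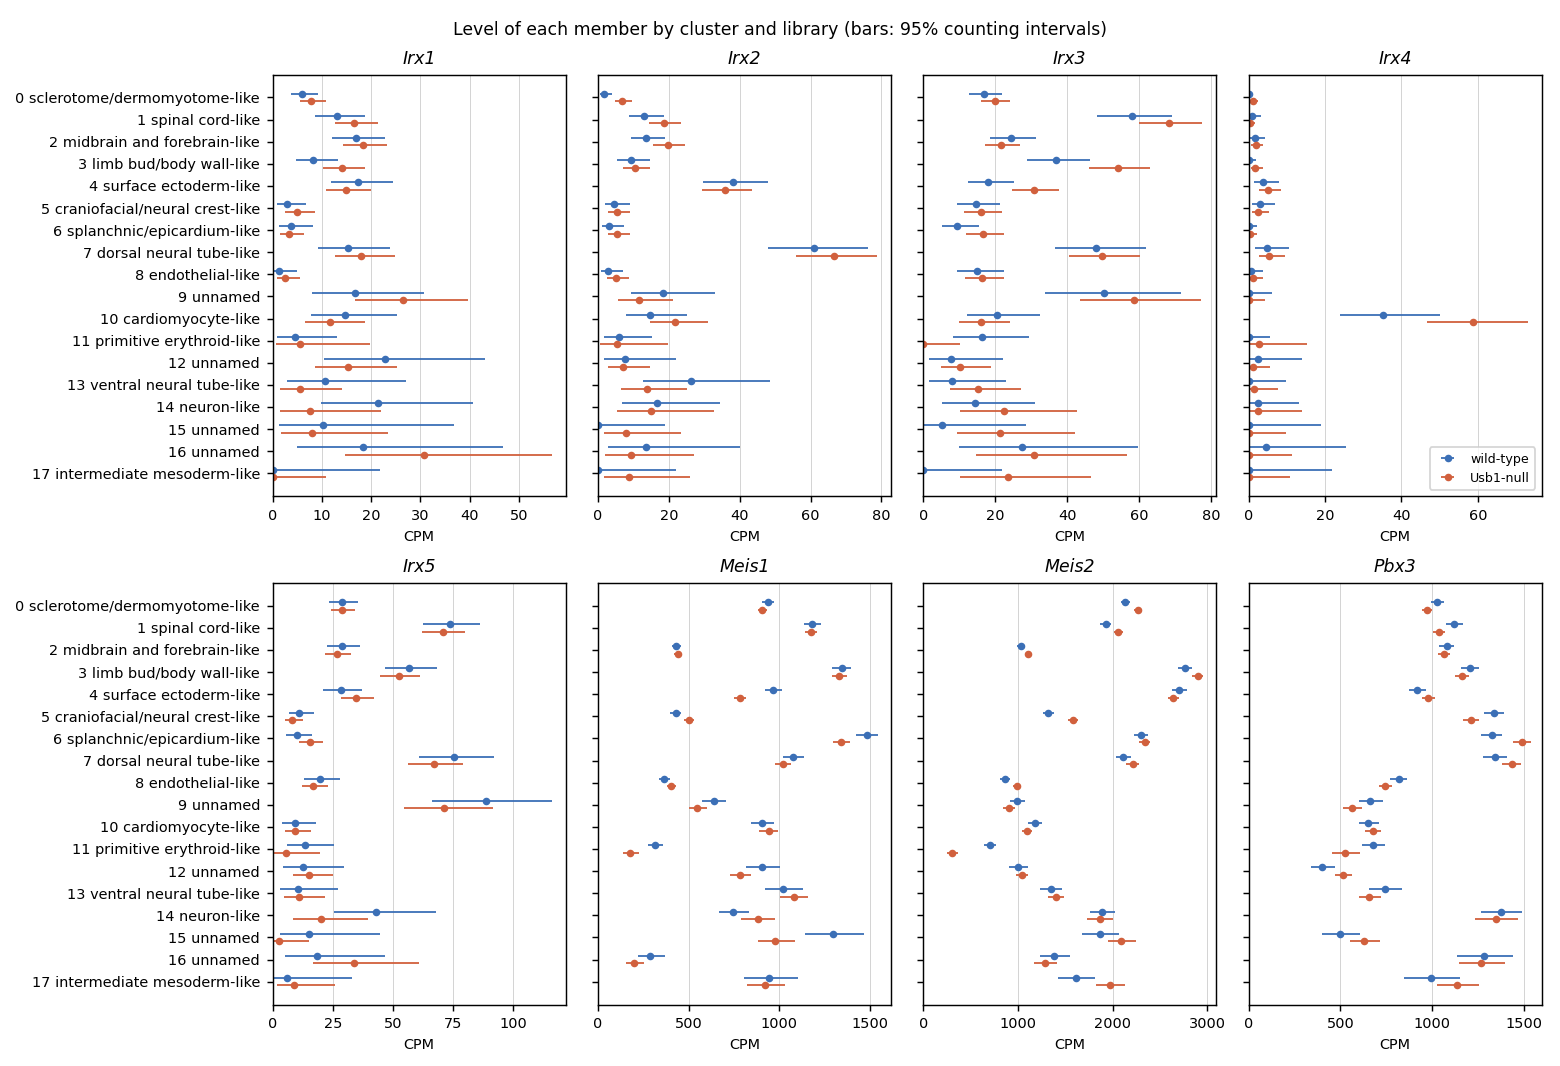
Level of 8 members (CPM, x axis, a separate scale for each gene) in the 18 clusters with at least 100 cells of each library (y axis). Points are the sums over all cells of a cluster in the wild-type (blue) and the Usb1-null (orange) library, and bars are 95% counting intervals. Irx4 stands out in the cardiomyocyte-like cluster, Irx2 in the dorsal neural tube-like cluster, and Irx3 and Irx5 in the same neural and limb clusters.

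Irx3 and Irx5, neighbors on chromosome 8, act in the neural tube and the limb bud, and were highest in the same 4 clusters. Irx3 reached 57.9 and 68.4 CPM in the spinal cord-like cluster, 48.1 and 49.6 CPM in the roof plate/dorsal neural tube-like cluster, and 36.9 and 54.1 CPM in the limb bud/body wall mesenchyme-like cluster. Irx5 reached 73.7 and 70.6, 75.3 and 67.1, and 56.9 and 52.4 CPM in those clusters. The fourth, cluster 9, had few UMIs per cell and no name, with the neural genes Sox1, Sox2, Pax6 and Hes5 raised, and gave 50.2 and 58.6 CPM for Irx3 and 88.7 and 71.3 CPM for Irx5. For Irx5, these 4 clusters overlapped when the intervals of both libraries were joined, although the Usb1-null intervals of the spinal cord-like and limb bud/body wall mesenchyme-like clusters alone were apart. The lowest of the 4 stood above the surface ectoderm-like cluster, the next in order (28.2 and 34.8 CPM). For Irx3 no neighbors in the order of the 18 clusters were apart. Both genes were lower in the splanchnic mesoderm-like cluster, where Irx3 gave 9.39 and 16.6 CPM and Irx5 gave 10.0 and 15.4 CPM. The spinal cord-like cluster held 22.9% and 23.6% of all Irx3 UMIs and 21.1% and 22.5% of all Irx5 UMIs.

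Irx1 and Irx2 are neighbors on chromosome 13, and only Irx2 had a leading cluster that stood apart. Irx2 was highest in the roof plate/dorsal neural tube-like cluster, with 76 and 137 UMIs (60.9 and 66.6 CPM), and next in the surface ectoderm-like cluster, with 70 and 106 UMIs (38.0 and 35.8 CPM). These top 2 clusters were apart from each other, by a narrow margin, when the intervals of both libraries were joined. The first held 25.4% and 24.5% of all Irx2 UMIs and the second 23.4% and 18.9%. The roof plate/dorsal neural tube-like cluster also had 3 of 6 hindbrain markers raised, among them Egr2 (6.41 and 17.5 CPM). It held little Hoxb4 (12.8 and 3.89 CPM, against 189 and 138 CPM in the spinal cord-like cluster). Hindbrain level and dorsal position therefore cannot be told apart for any gene in this cluster. Irx1 had no cluster that stood apart: it ranged from 0 to 22.7 CPM in wild-type and from 0 to 30.8 CPM in Usb1-null clusters, and none of the 17 neighboring pairs in its order were apart. The endothelial-like cluster was low for both genes (Irx1 1.35 and 2.53 CPM, Irx2 2.71 and 5.06 CPM).

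A finer clustering, with 36 groups of cells, separated 2 surface ectoderm-like groups in which the neighbors differed. In finer group 6, Irx1 was at 23.2 and 19.5 CPM and Irx2 at 27.7 and 24.4 CPM. In finer group 13, Irx1 was at 4.60 and 5.91 CPM, whereas Irx2 was at 59.8 and 60.1 CPM. Both libraries gave this contrast. These groups were compared after their values had been seen, and are described without a test.

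Irx4, a marker of the heart ventricle, was highest in cardiomyocyte-like cells. That cluster held 31 of the 59 wild-type UMIs (52.5%) and 81 of the 139 Usb1-null UMIs (58.3%), at 35.2 and 58.7 CPM. The next clusters in order, roof plate/dorsal neural tube-like (4.81 and 5.35 CPM) and surface ectoderm-like (3.80 and 5.07 CPM), lay below its counting intervals in both libraries. An Irx4 UMI was found in 6.15% of wild-type and 14.4% of Usb1-null cardiomyocyte-like cells, and in 3.44% and 5.37% once each cell was thinned to 800 UMIs. In the spinal cord-like cluster it was found in 0.118% and 0.0663% of cells.

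Within the cardiomyocyte-like cluster, Irx4 was set beside Myl2, the ventricular light chain, and Nr2f2, a factor of the atria, a split chosen after seeing the data. In the Usb1-null library, cells with a Myl2 UMI gave 94.9 CPM of Irx4 (71.7 to 123) and cells without one gave 31.7 CPM (20.5 to 46.8). In the wild-type library the values were 43.9 CPM (26.8 to 67.8) and 25.9 CPM (12.9 to 46.3). The ratio was 2.995 (1.84 to 5.01) in the Usb1-null and 1.70 (0.775 to 3.92) in the wild-type library. Cells with an Nr2f2 UMI gave 11.7 and 29.0 CPM, and cells without one gave 44.8 and 71.5 CPM, ratios of 0.262 (0.0509 to 0.847) and 0.405 (0.1999 to 0.754). Irx4 was thus higher on the Myl2 side and lower on the Nr2f2 side in both libraries, and of these 4 ratios the interval of wild-type Myl2 included 1. Cells with a marker UMI were also deeper. The median was 1737 against 1366.5 UMIs in wild-type and 2947 against 2547 UMIs in Usb1-null cells for Myl2, and 1903.5 against 1426.5 and 3540 against 2550 UMIs for Nr2f2. The part of depth was not tested.

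Meis1 and Meis2 encode Hox cofactors, and were broad but not even. Meis1 was highest in the splanchnic mesoderm and epicardium/septum transversum-like cluster (1484 and 1342 CPM) and the limb bud/body wall mesenchyme-like cluster (1344 and 1329 CPM). The wild-type intervals of these clusters were apart (1425 to 1545 and 1293 to 1396 CPM) and the Usb1-null intervals overlapped. The limb cluster stood above the spinal cord-like cluster (1181 and 1174 CPM). At the low end were the endothelial-like cluster (367 and 405 CPM), the erythroid-like cluster (315 and 176 CPM) and the unnamed cluster 16 (288 and 197 CPM), in which the otic genes Pax2, Dlx5 and Eya1 were raised. Meis1 is also known from platelet precursors: in the 19 and 7 megakaryocyte-like cells, it gave 2141 and 1675 CPM from only 46 and 26 UMIs.

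Meis2 was highest in the limb bud/body wall mesenchyme-like (2761 and 2898 CPM) and surface ectoderm-like (2705 and 2639 CPM) clusters. Their wild-type intervals overlapped, while the Usb1-null intervals were apart (2839 to 2959 and 2581 to 2698 CPM). The surface ectoderm-like cluster in turn stood above the splanchnic mesoderm-like cluster (2300 and 2338 CPM). Among the 18 clusters, Meis2 was lowest in the erythroid-like cluster (701 and 308 CPM), which lay below all the others. The endothelial-like cluster (862 and 992 CPM) and the unnamed cluster 9 (992 and 900 CPM) were next in order. The megakaryocyte-like cells, too few to be ranked, gave 233 and 0 CPM of Meis2 from 5 and 0 UMIs. Meis1 had another order, with 966 and 783 CPM in surface ectoderm-like and 1344 and 1329 CPM in limb bud/body wall mesenchyme-like cells.

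Pbx3, whose protein pairs with Meis and Hox proteins, had the smallest fold of the 3 between its highest and lowest clusters. Pbx3 ranged from 402 to 1374 CPM over the wild-type and from 515 to 1487 CPM over the Usb1-null clusters. Against Meis2 in the wild-type library this ranking rested on the erythroid-like cluster. Without that cluster, wild-type Meis2 ranged from 862 to 2761 CPM, a smaller fold than that of Pbx3. High values were found in the splanchnic mesoderm and epicardium-like (1323 and 1487 CPM), dorsal neural tube-like (1342 and 1433 CPM) and neuron-like (1374 and 1347 CPM) clusters, whose intervals overlapped in each library, and wild-type cells of the craniofacial mesenchyme and neural crest-like cluster were as high (1335 and 1211 CPM). The lowest of the 18 clusters was the unnamed cluster 12, with yolk sac and gut endoderm genes raised (402 and 515 CPM). In the finer clustering, Pbx3 reached 1867 and 2552 CPM in the splanchnic mesoderm and epicardium-like group marked by Wt1 and Tbx18. The next in order, a roof plate/dorsal neural tube-like group, was at 1419 and 1529 CPM.

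The neural groups of the finer clustering gave the clearest pattern along the body axis. The forebrain-like group held Otx2 with little En1 (1.66 and 2.87 CPM), the midbrain-like group held En1 (96.8 and 154 CPM) and Otx2, the hindbrain-like group held Hoxa2 (49.0 and 50.1 CPM), and the spinal cord groups held Hoxb4, with Hoxc8 (92.8 and 119 CPM) in the posterior one. In wild-type cells, Irx3 was at 3.31 CPM in the forebrain-like group (4 UMIs) and 46.3 CPM in the midbrain-like group (55 UMIs), a ratio of 14.0 (5.16 to 53.1). In Usb1-null cells it was at 4.02 and 37.4 CPM, a ratio of 9.30 (4.30 to 24.0). Irx1, Irx2 and Irx5 behaved alike, while Irx4 was too sparse to compare, with 3 midbrain-like and 1 forebrain-like UMIs in wild-type and 7 and 0 in Usb1-null cells. The ratio of midbrain-like to forebrain-like was 9.41 (3.38 to 36.3) and 4.70 (2.44 to 9.94) for Irx1. It was 10.2 (3.16 to 52.1) and 5.62 (2.86 to 12.3) for Irx2, and 6.55 (3.22 to 15.04) and 3.75 (2.28 to 6.45) for Irx5. Irx1, Irx2, Irx3 and Irx5 were thus lower in the forebrain-like group in both libraries.

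Meis1 and Meis2 had their step at another place. The midbrain-like to forebrain-like ratio was 0.874 and 1.03 for Meis1 and 0.931 and 0.9001 for Meis2. Meis1 was at 408 and 449 CPM in the midbrain-like group and at 1103 and 1081 CPM in the hindbrain-like group. Meis2 went from 998 and 1055 CPM to 2395 and 2648 CPM between the same groups. Pbx3 showed neither step, with 1045 and 1009 CPM in the forebrain-like, 1113 and 1118 CPM in the midbrain-like and 1219 and 1290 CPM in the hindbrain-like group, but was lower in the posterior spinal cord group (736 and 616 CPM) than in the other spinal cord group (1279 and 1259 CPM). The hindbrain-like group also carried ventral neural tube markers, and the posterior spinal cord group dorsal ones, with Wnt3a at 83.2 and 65.7 CPM against 20.8 and 15.3 CPM in the other spinal cord group, so position along the body and from back to belly cannot be told apart for these groups. The groups were chosen for this account after their values had been seen.

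**Figure D2:**
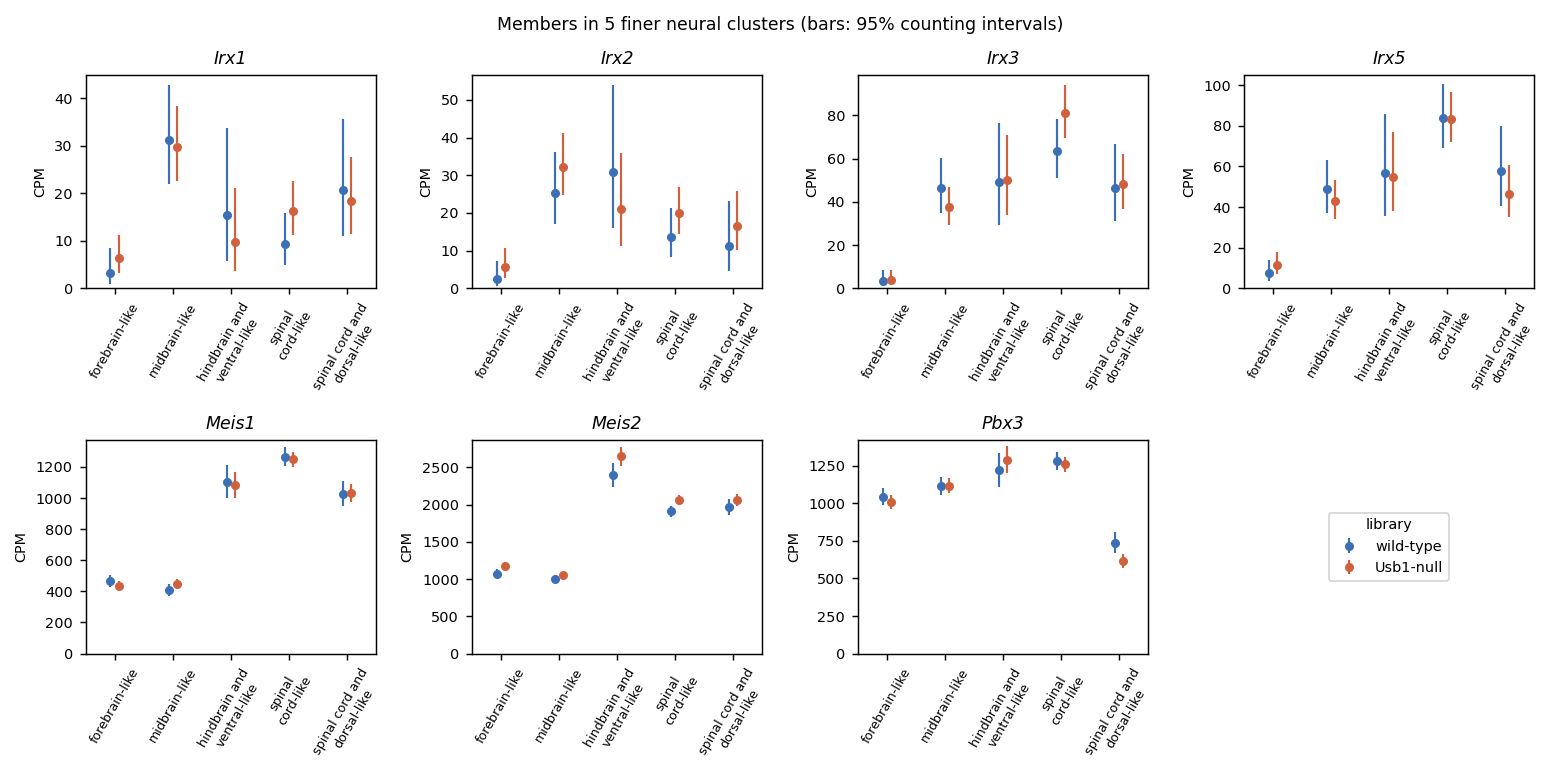
Level of 7 members (CPM, y axis from 0, a separate scale for each gene) in 5 finer neural groups ordered from head to tail by their landmark genes (x axis). Points are the sums over the cells of a group in the wild-type (blue) and the Usb1-null (orange) library, and bars are 95% counting intervals. The 4 Irx genes are lowest in the forebrain-like group, while Meis1 and Meis2 are low in the forebrain-like and midbrain-like groups.

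Among cells of the head mesenchyme, Meis1 separated 2 groups that Pbx3 did not. The neural crest-like group gave 724 and 788 CPM of Meis1 and the craniofacial mesenchyme-like group gave 274 and 314 CPM, ratios of 2.64 (2.28 to 3.07) and 2.51 (2.23 to 2.83). For Meis2 the order was opposite, with ratios of 0.810 (0.740 to 0.886) and 0.737 (0.689 to 0.788). For Pbx3 the ratios were 0.991 (0.908 to 1.08) and 1.05 (0.975 to 1.13). An unnamed finer group with Ebf1 and Tbx1 among its leading genes had low Meis1 (216 and 213 CPM) beside high Irx5 (77.0 and 67.5 CPM).

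The likeness of the members was measured as Pearson r between their log2(CPM + 5) values over the 18 clusters. The points share libraries, depth and ancestry of cells, so r is given as a description only. Irx3 and Irx5 were the most alike, with r = 0.82 in the wild-type and 0.78 in the Usb1-null library. Irx1 and Irx2, the corresponding neighbors, gave 0.68 and 0.47. Of the pairs that correspond between the clusters, Irx1 and Irx3 gave 0.47 and 0.49, and Irx2 and Irx5, the closest in homeobox sequence, gave 0.52 and 0.51. These were below Irx1 and Irx2 in the wild-type library and slightly above them in the Usb1-null library, where Irx1 and Irx5 gave 0.66. The highest r of Irx4 with a member was 0.42, with Irx2 in the Usb1-null library. Meis1 and Meis2 gave 0.72 and 0.76, or 0.65 and 0.60 without the erythroid-like cluster, and Meis2 and Pbx3 gave 0.49 and 0.65. Over the finer groups, Meis2 and Pbx3 gave only 0.25 and 0.38. Irx3 and Meis2 gave 0.07 in the wild-type and 0.66 in the Usb1-null library, but 0.07 and 0.32 without the erythroid-like cluster, in which the Usb1-null library had 0 Irx3 UMIs.

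**Figure D3:**
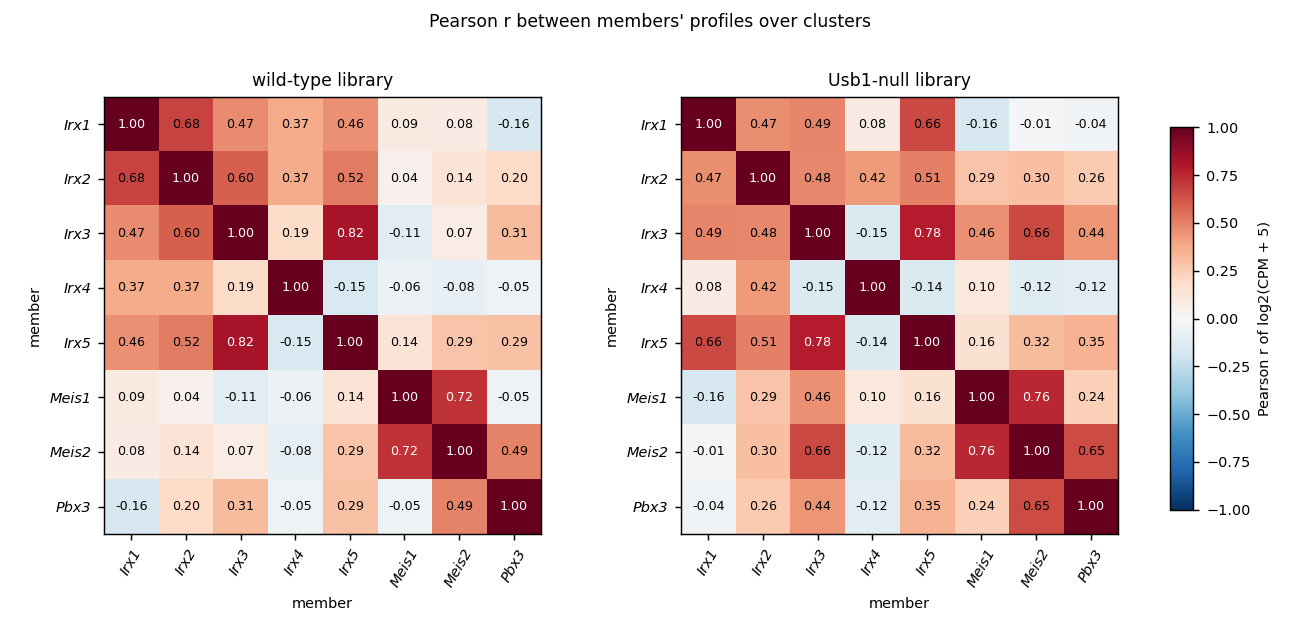
Pearson r between the cluster profiles of 8 members (log2(CPM + 5) over 18 clusters) in the wild-type (left) and the Usb1-null (right) library, on a color scale from -1 (blue) to 1 (red). The Irx3 and Irx5 pair and the Meis1 and Meis2 pair are the darkest outside the diagonal in both libraries.

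Among 10753 other genes with at least 200 UMIs in each library, the 3 whose profile was most like each member were taken by the lower of the 2 r. For Irx5 the most alike was Crnde (r = 0.85 and 0.87), a noncoding RNA gene that lies next to Irx5 on the opposite strand. Crnde was also among the 3 for Irx3 (0.89 and 0.70), together with Msx1, a homeobox gene of the dorsal neural tube and limb, which was in the list of both genes (0.78 and 0.75 with Irx3, 0.76 and 0.83 with Irx5). The spinal cord-like cluster gave 76.9 and 81.8 CPM of Crnde and the dorsal neural tube-like cluster 83.3 and 85.6 CPM, the highest of the 18. The gene most like Irx1 was Cxadr (0.76 and 0.71), and Sp8, a factor of the limb ridge and forebrain, was also among its 3 (0.67 and 0.77). Irx2 was most like Slc35f1 (0.72 and 0.69), with the planar polarity gene Celsr1 (0.77 and 0.69) and the collagen receptor gene Ddr1 (0.69 and 0.69). Meis1 was most like Gm16141 (0.79 and 0.88), Meis2 like the Hedgehog effector Gli2 (0.76 and 0.74) and the Wnt receptor Ror2 (0.74 and 0.84), and Pbx3 like C79798 (0.86 and 0.88) and the netrin receptor Unc5c (0.82 and 0.74).

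Likeness over clusters was only partly visible in single cells. After thinning, 247 wild-type cells held an Irx3 UMI, of which 16 (6.48%, 3.75% to 10.3%) also held Irx5, against 2.67% (2.40% to 2.98%) of cells without Irx3. In the Usb1-null library the shares were 15 of 314 (4.78%, 2.70% to 7.76%) and 2.67% (2.39% to 2.97%), whose intervals overlap. Within the neural clusters, 9 of 115 wild-type Irx3 cells (7.83%) and 7 of 136 Usb1-null Irx3 cells (5.15%) held Irx5, against 4.33% and 4.22% of the others. For Irx1 and Irx2 there were 7 of 113 wild-type cells (6.19%, 2.53% to 12.3%) against 0.890% (0.732% to 1.07%), whose intervals were apart, and 3 of 142 Usb1-null cells (2.11%, 0.438% to 6.05%) against 1.35% (1.16% to 1.57%). Within the neural clusters, 2 of 47 wild-type Irx1 cells (4.26%, 0.520% to 14.5%) held Irx2, against 1.36% (1.00% to 1.80%), whose intervals overlap. In Usb1-null neural cells the order was the other way, with 1 of 70 (1.43%) against 2.47%. At this depth a cell with 1 Irx UMI rarely shows another, and the shares rest on few cells.

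The share of cells with a UMI followed depth as well as level. Meis2 was seen in 71.7% of wild-type and 84.7% of Usb1-null cells as deposited, but in 63.8% and 64.7% after thinning to 800 UMIs, which left out 2689 and 304 shallower cells. Pbx3 went from 64.6% and 77.5% to 51.8% and 50.02%, and Meis1 from 54.1% and 67.7% to 43.4% and 43.1%. The gap between the libraries was thus smaller at equal depth for these 3 genes. Irx5 was seen in 2.75% and 2.72% of thinned cells and Irx3 in 1.98% (1.74% to 2.24%) and 2.47% (2.21% to 2.75%). Erythroid-like cells, which should lack the Irx genes and were taken to show free RNA, gave 4 of 320 (1.25%) and 0 of 172 thinned cells for Irx3, the latter allowing up to 2.12%. In the spinal cord-like cluster the share was 4.76% (3.70% to 6.01%) and 4.99% (3.95% to 6.22%), above that background. Only 463 of the 588 wild-type and 163 of the 181 Usb1-null erythroid-like cells were not called doublets. This background may therefore also hold RNA of other cell types in doublets. The median depth was 833 and 1708 UMIs in erythroid-like and 1154 and 2178 UMIs in spinal cord-like cells.

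Next, the 2 genotypes were compared over all cells. With at least 50 UMIs over both libraries, 8 of the 9 members could be read, and 1 of them, Irx4, differed by 1.5-fold or more. Of all 16752 genes read in this way, 15.1% did, and 1 of 8 members is no more than that background. Irx4 was at 2.71 CPM (2.07 to 3.50) in the wild-type and 4.16 CPM (3.50 to 4.92) in the Usb1-null library, a ratio of 1.53 (1.12 to 2.12). In the cardiomyocyte-like cluster the ratio was 1.67 (1.09 to 2.61), and outside that cluster it was 1.35 (0.846 to 2.20). Myl2, measured in the same cells, was lower in the Usb1-null library (600 and 268 CPM), the opposite direction to Irx4. The ratio of Irx4 fell short of 1.5-fold without called doublets (1.41), after thinning (1.49) and without the erythroid-like cluster (1.49).

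The other Irx genes lay closer together. Irx3 was at 25.1 and 30.9 CPM, a ratio of 1.23 (1.11 to 1.37). Irx2 was at 13.8 and 16.8 CPM, a ratio of 1.22 (1.06 to 1.41). Irx1 was at 10.4 and 11.9 CPM, a ratio of 1.15 (0.973 to 1.36), which includes 1. Irx5, the neighbor of Irx3, was at 34.7 and 33.5 CPM, a ratio of 0.967 (0.881 to 1.06). For the members with most UMIs the counting intervals were narrow: Meis2 was at 1786 and 1885 CPM (ratio 1.06, 1.04 to 1.07), Meis1 at 878 and 862 CPM (0.982, 0.964 to 1.00) and Pbx3 at 1049 and 1031 CPM (0.982, 0.966 to 0.999). The median ratio of the 8 members was 1.10, beside 0.998 over all genes read.

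**Figure D4:**
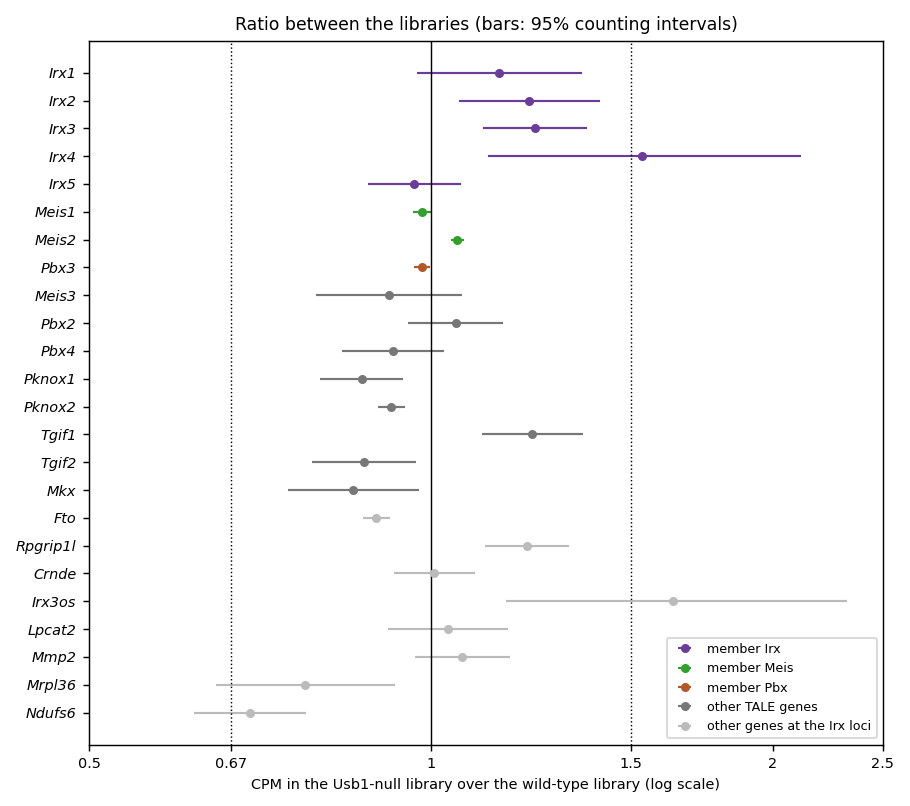
Ratio of CPM in the Usb1-null library over the wild-type library (x axis, log scale) for the 8 members with at least 50 UMIs, 8 other TALE genes and 8 other genes at the Irx loci (y axis). Points are ratios of summed UMIs, bars are 95% counting intervals and dotted lines mark 1.5-fold in either direction. Irx4 and Irx3os are the 2 genes beyond 1.5-fold.

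Cluster by cluster, 85 pairs of a member and a cluster held at least 50 UMIs, and 7 of them (8.24%) were past 1.5-fold, against 14.1% of all 133994 pairs of a gene and a cluster. In 5 of them the Usb1-null level was the higher. These were Irx4 in cardiomyocyte-like cells, Irx1 in limb bud/body wall mesenchyme-like cells (8.195 and 14.0 CPM, ratio 1.71, 0.943 to 3.25), Irx3 in surface ectoderm-like cells (17.9 and 30.8 CPM, ratio 1.72, 1.14 to 2.64), and Irx3 and Irx5 in splanchnic mesoderm-like cells (ratios 1.76, 0.956 to 3.43, and 1.53, 0.834 to 2.94). The 2 lower ones were Meis1 and Meis2 in erythroid-like cells. None of the 18 clusters was past 1.5-fold for Pbx3. Irx3 was higher in Usb1-null cells in 9 of its 10 clusters, with a median log2 ratio of 0.23. The interval of the Irx3 ratio was above 1 only in the limb bud/body wall mesenchyme-like (1.11 to 1.96) and surface ectoderm-like clusters. In its other clusters the interval included 1. Irx5 was higher in 2 of 9, with a median of -0.10, and the interval of the ratio included 1 in all 9. The difference between the neighbors was not tested. Meis1 and Pbx3 were higher in 6 and 7 of 18 clusters.

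In erythroid-like cells, Meis2 was at 701 and 308 CPM, Meis1 at 315 and 176 CPM and Pbx3 at 676 and 525 CPM. The counting intervals of the 2 libraries did not overlap for any of the 3 genes. Without the cells called doublets, a setting added after seeing the data, Meis2 was at 272 and 229 CPM, Meis1 at 155 and 131 CPM and Pbx3 at 584 and 494 CPM, and the intervals of all 3 ratios included 1. The gap between the libraries in this cluster was thus smaller without those cells.

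**Figure D5:**
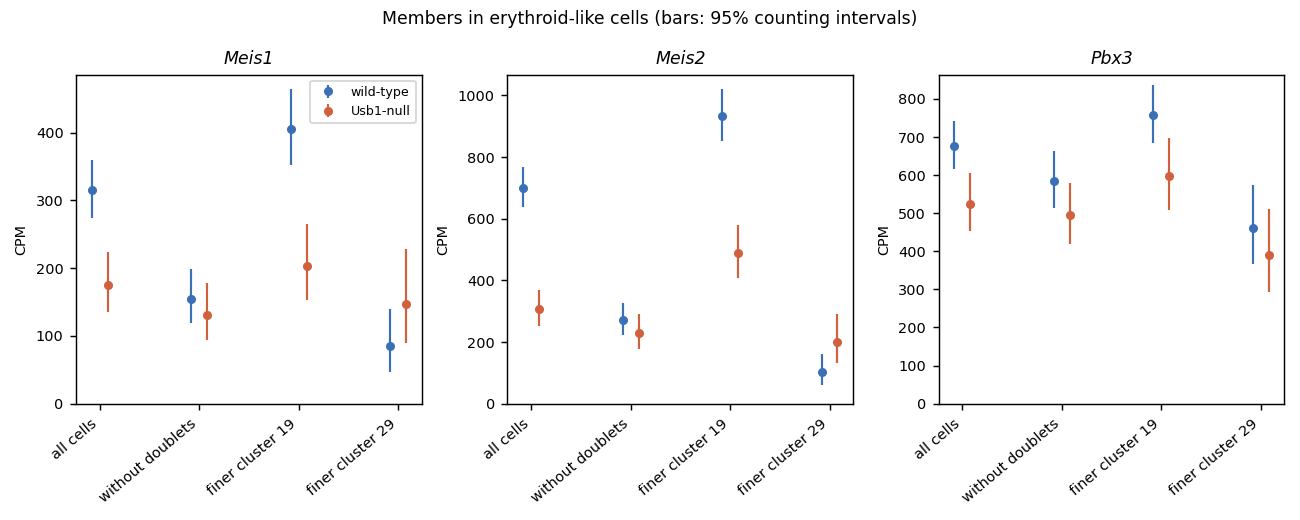
Level of Meis1, Meis2 and Pbx3 (CPM, y axis from 0) in all erythroid-like cells, in those not called doublets, and in the 2 finer erythroid-like groups (x axis), for the wild-type (blue) and the Usb1-null (orange) library. Bars are 95% counting intervals. The libraries lie apart for Meis2 in all cells (701 and 308 CPM) and close together without doublets (272 and 229 CPM).

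Of 8 other TALE genes read, 0 were past 1.5-fold. The Usb1-null level was the lower for 6, and the median ratio was 0.9202. Pknox2 was at 407 and 376 CPM (ratio 0.923, 0.898 to 0.948). Of the 2 higher ones, Tgif1, a repressor of the same class, had an interval above 1, at 26.6 and 32.7 CPM (1.23, 1.11 to 1.36). Meis3, at 14.3 and 13.1 CPM, included 1 in its interval. Of 8 other genes at the Irx loci, 1 was past 1.5-fold. This was Irx3os, at 2.25 and 3.68 CPM (49 and 123 UMIs), a ratio of 1.63 (1.16 to 2.32) beside 1.23 for Irx3, which it overlaps. Crnde was at 44.7 and 45.1 CPM (1.01, 0.929 to 1.09), and its interval, like that of Irx5 beside it, included 1. Fto, whose introns hold enhancers of Irx3, was at 399 and 357 CPM (0.895, 0.871 to 0.920).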

How the data were processed

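The authors deposited, for each library, UMI counts per gene and barcode with no normalization. The file headers and the methods name Cell Ranger 6.1.2, while the submitters' processing notes name Cell Ranger 2.1.1 and the build mm10. The sources used here do not say whether intronic reads were counted. By label the molecule is nuclear RNA, whereas the protocol describes single cells. The number of Usb1-null cells stated in the methods equals the deposited barcodes, and that of wild-type cells is lower than the 15162 deposited. The members and gene lists were chosen with earlier results of these data known.

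Cells with 200 to 6000 genes and under 30% mitochondrial UMIs were kept (15161 of 15162 barcodes for wild-type, 13018 of 13034 for Usb1-null). The 2000 most variable genes by mean rank over the libraries, without the members, mitochondrial, ribosomal, Xist and Y-linked genes, gave 30 principal components (Scanpy 1.11.5), which were corrected for library by Harmony rewritten in NumPy 2.4.6 and clustered by Leiden (leidenalg 0.10.2, 15 neighbors). Resolutions were those nearest to 19 and 36 clusters. A marker counted as raised with 10 UMIs and a 2-fold excess. A name needed at least 3 raised markers with 1 marker among the 10 leading genes, or at least 4 with 60% of the list raised. Lists with at least 4 markers and most of the list raised were joined, up to 2. A cluster stayed unnamed if more than 2 lists reached this, or if a list outside the name held more of the leading genes. This rule was set after the clusters were seen, so names may differ from those of the study. Doublets called by Scrublet at an expected rate of 10% (6.15% and 4.37% of cells) were kept.

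Counts were summed per cluster and library. Intervals are exact Poisson for levels, Clopper-Pearson for shares, and exact binomial, given the sum of both counts, for ratios. UMI duplicates were removed upstream, and intervals cover counting error only. Neighbors in an order were called apart when their intervals, joined over both libraries, did not overlap. The ratio and intervals were tested on simulated data. Gene positions and sequences came from GENCODE M21, which held 99.6% of the gene identifiers. For each member the 3 genes most alike in profile were named, besides all genes of the lists, if it had at least 200 UMIs in each library. A gene of the TALE list and some marker genes are not reported here.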

Additional observations from a re-analysis of the deposited data

Results flagged for a closer look

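Meis2 in erythroid-like cells went against its direction over all cells. Over all cells its ratio of Usb1-null to wild-type was 1.06, whereas in the erythroid-like cluster it was 0.439 (0.354 to 0.540), from 470 UMIs in 588 wild-type cells and 112 UMIs in 181 Usb1-null cells. The difference between the cluster and the rest was not tested. Of these cells, 463 and 163 were not called doublets, and in them 112 and 70 Meis2 UMIs remained, at 272 and 229 CPM, a ratio of 0.844 (0.617 to 1.15) that includes 1. Meis1 went likewise from 0.559 (0.415 to 0.742) to 0.844 (0.554 to 1.27), and Pbx3 from 0.776 to 0.846. The finer clustering divided the cells. In finer group 19 Meis2 was at 933 and 488 CPM, and in finer group 29 it was at 102 and 199 CPM, from 18 and 27 UMIs. Erythroid-like cells also took different shares of the libraries, 3.88% and 1.39%. Of 24 marker lists of cell types outside the blood, 13 were lower in the Usb1-null cells of this cluster and 11 higher, with summed levels of 1905 and 1492 CPM. Lists of the cells with the highest Meis2 gave 131 and 82.4 CPM (limb bud and body wall mesenchyme, ratio 0.628) and 71.6 and 44.0 CPM (surface ectoderm, ratio 0.614), within a range from 0.327 for sclerotome to 18.4 for hepatocyte, the latter from 1 and 10 UMIs. The primitive erythroid list itself was at 17215 and 10730 CPM, a ratio of 0.623, and the other blood lists had ratios of 1.66 (megakaryocyte) and 1.10 (white blood cell). Free RNA also differed between the libraries. Outside its own cluster, the median level of the globin gene Hba-x was 57.0 CPM in the wild-type and 16.2 CPM in the Usb1-null library, and that of Myl2 was 35.3 and 12.3 CPM. The part of doublets and of free RNA in the result was not tested.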

How the results depend on the processing

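No paired analysis was possible because each genotype had 1 library, and no replicate could be left out. Of 57 ratios of members recomputed under other settings, 51 stayed within the main counting interval and none reversed. Thinning to 800 UMIs gave 1.45 for Irx2, 0.948 for Meis1 and 1.02 for Meis2, wild-type cluster shares gave 0.961 for Meis1 and 1.04 for Meis2, and a minimum of 1000 genes gave 1.04 for Meis2. Irx4 ranged from 1.35, without the cardiomyocyte-like cluster (a setting added after seeing the data), to 1.81. The number of members past 1.5-fold was 0 in place of 1 without doublets, after thinning, without the erythroid-like cluster and with a minimum of 200 UMIs. Of 72 recomputed r, 65 moved by at most 0.1. The others were Meis2 and Pbx3 over finer groups (0.25 and 0.38), Irx3 and Irx5 in the Usb1-null library without library correction (0.88) or with 1 CPM added (0.68), Irx1 and Irx3 with 1 CPM added (0.60 and 0.34), and Meis1 and Meis2 in the Usb1-null library without the erythroid-like cluster (0.60, added after seeing the data). Allowing the members among the variable genes left the clusters identical, since 0 of them ranked high enough, so the 12 of these r from that setting test nothing. Thinned shares of cells, wild-type and Usb1-null, were 0.906% and 1.12% for Irx1, 0.938% and 1.36% for Irx2, 1.98% and 2.47% for Irx3, 0.216% and 0.315% for Irx4, 2.75% and 2.72% for Irx5, 43.4% and 43.1% for Meis1, 63.8% and 64.7% for Meis2, and 51.8% and 50.02% for Pbx3. The sparse Irx counts limit what can be seen: with 59 wild-type UMIs, the interval of the Irx4 ratio spans 1.12 to 2.12. Genotype, sex, depth and library could not be told apart.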
